A study of Homo sapiens with 24 samples.

Results

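The subject is the response of SH-SY5Y cells to a long CGG repeat, measured against the same construct with a short repeat. It rests on 12 of the series' 24 arrays, chosen by title: the 6 arrays titled V79 in experiments B to G, without the mark 8x, and the 6 titled V21 in the same experiments. SH-SY5Y is a neuroblastoma line that grows as neuroblast-like cells. V79 cells received the plasmid pCAGIG with an insert from the 5' end of FMR1, its untranslated region, holding 79 CGG repeats. V21 cells received pCAGIG with the same insert holding 21 repeats. The other 12 arrays, 6 from V79_8x cells and 6 from Mock cells, entered the same statistical fit and are cited only beside V79 and V21 values. The labels call V79_8x overexpressing for the 79-repeat region, and Mock cells received the empty plasmid. All groups were therefore transfected, and RNA was taken 24 h afterwards. The V79 arrays are named V80 in the submitters' array names, so the repeat number rests on the labels. The labels do not state which share of cells took up a plasmid, and a change in fewer cells cannot be told apart from a smaller change in all of them.

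FMR1 encodes FMRP, an RNA-binding protein that restrains translation at synapses, and its first exon carries a CGG repeat ahead of the coding sequence. Moderately expanded repeats, called premutations, leave the gene active and are known for a late-onset tremor and ataxia syndrome and for ovarian insufficiency. In that setting the repeat RNA has been described to hold proteins in the nucleus and to be translated, without a usual start codon, into a polyglycine protein. A construct with a short repeat differs from the long one in repeat length while sharing the vector. The labels do not state whether both plasmids were taken up and expressed equally, so repeat length cannot be told apart from plasmid dose.

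The values are deposited log2 intensities from 1-colour microarrays, so a difference of 1 is a doubling of signal. The median of every array was 6.7, and each gene was represented by its brightest feature over the 24 arrays. Of 20061 genes, 15046 passed a filter that left out the dimmest 25%, at a mean of 6.43. Differences are V79 minus V21 means from limma, with adjusted p by the Benjamini-Hochberg method over the 15046 genes and a threshold of 0.05. The design text calls the 6 arrays of each group biological replicates. V79 B, V21 B, V21 C and Mock D stood apart: the SD of their genes' deviations from the group mean was 0.337 to 0.411, against 0.116 to 0.260 for the other 20 arrays. Noradrenergic neuronal markers of the labelled line were present, with 10 of 10 passing the filter and a median level of 11.6 in V79 and 11.8 in V21 cells. Mesenchymal markers passed for 9 of 9, with median levels of 10.3 in V79 and 10.3 in V21 cells. Of 4 glial markers 1 passed the filter, and of 3 blood cell markers 2 passed, with median levels of 6.69 in V79 and 6.48 in V21 cells.

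A single gene separated V79 from V21 cells past the threshold. SERPINA3, which encodes alpha-1-antichymotrypsin, a secreted inhibitor of chymotrypsin-like serine proteases known from the acute phase response, rose in V79 cells. Calls upward amounted to 0.00665% of the genes tested, and calls downward to 0%. In all, 574 genes had an unadjusted p under 0.05 in limma, of which 383 were higher and 191 lower, where 752.3 would be met by chance alone.

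SERPINA3 measured 7.97, 7.77, 7.68, 7.78, 8.03 and 7.86 on V79 arrays B to G, against 7.09, 7.24, 7.38, 7.21, 7.37 and 7.42 on V21 arrays B to G. Every V79 array lay above every V21 array, with 0.26 between the lowest V79 and the highest V21 value. The means were 7.85 ± 0.13 in V79 and 7.29 ± 0.13 in V21 cells (SD, n = 6 each). The difference was 0.56 on the log2 scale (SE 0.08, 95% interval 0.40 to 0.73), or 1.48-fold, with an adjusted p of 0.0045 in limma. SERPINA3 averaged 8.15 in V79_8x cells and 7.26 in Mock cells. V79 exceeded Mock by 0.59 (limma, adjusted p 0.0023), and SERPINA3 was also the only gene called higher in that comparison, 0.00665% of those tested. V21 exceeded Mock by 0.02, which did not pass the test, and the V79 difference against V21 shares its V79 arrays with the one against Mock.

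The array holds 3 SERPINA3 features, and they did not behave alike. The brightest is the one described. A dimmer feature measured 6.80, 7.14, 7.03, 7.16, 7.19 and 7.15 on V79 arrays, against 6.52, 6.56, 6.48, 6.62, 6.51 and 6.41 on V21 arrays, again without overlap. Its difference was 0.56, with an adjusted p of 0.0025 when every named feature was tested. The remaining feature measured 6.67, 7.08, 7.28, 7.03, 7.05 and 7.15 on V79 arrays, against 6.74, 6.48, 6.93, 6.91, 7.44 and 7.0 on V21 arrays. Those groups overlapped, and the difference of 0.13 had an adjusted p of 0.84 in limma. Over all 24 arrays the 3 features had means above the array median of 6.7. These were 7.64 for the brightest, 6.91 for the dimmer one without overlap and 7.02 for the remaining one. The dimmer feature without overlap averaged 6.52 in V21 and 6.505 in Mock cells, below that median and close to the filter limit of 6.43. It averaged 7.08 in V79 and 7.545 in V79_8x cells. Among genes taken by their brightest feature, SERPINA3 was still in the dimmest 50%. Whether low signal reduced its fold was not tested. With the 12 arrays alone, fitted without Mock and V79_8x, the difference was the same and the adjusted p 0.15. Without the 4 arrays that stood apart, the difference was 0.48 and the adjusted p 0.28.

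**Figure D1:**
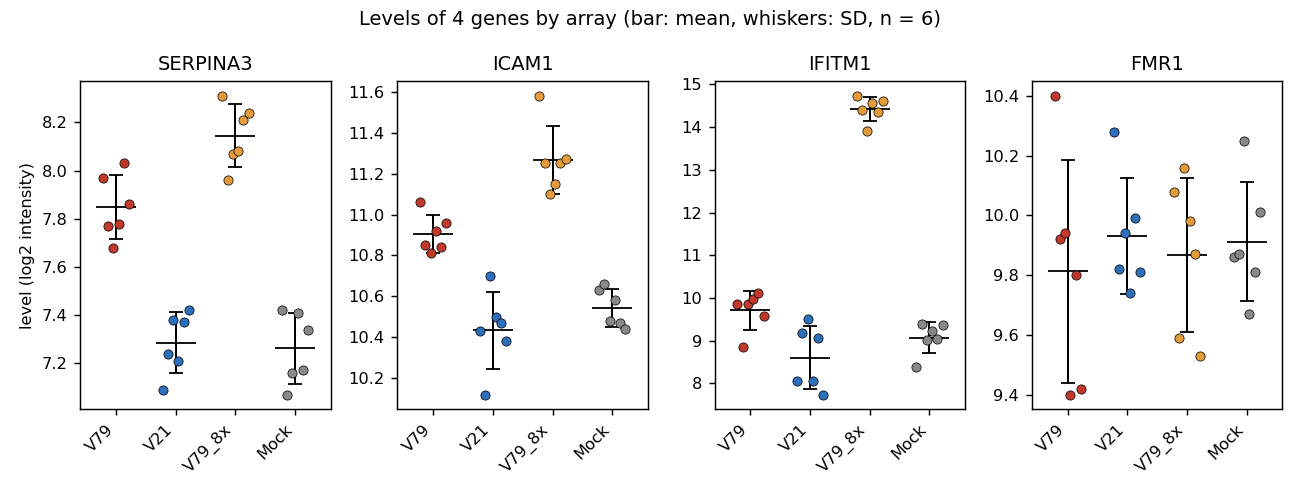
Log2 intensity of the genes ranked first by p, with FMR1 (y axis), one point per array, a bar for the group mean and whiskers for the SD (n = 6), for V79, V21, V79_8x and Mock arrays from left to right. For SERPINA3 and ICAM1 every V79 point lies above every V21 point, while for IFITM1 and FMR1 the groups overlap.

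The second gene by p was ICAM1, a cell surface adhesion molecule induced by NF-kB and by interferon gamma, which missed the threshold. ICAM1 measured 11.06, 10.85, 10.81, 10.92, 10.84 and 10.96 on V79 arrays B to G, against 10.43, 10.12, 10.70, 10.50, 10.47 and 10.38 on V21 arrays. The groups did not overlap, with 0.11 between them. The difference was 0.47 (SE 0.08), with an adjusted p of 0.063 in limma. All 10 ICAM1 features were higher in V79 cells, by 0.40 to 0.47, and 8 of the 10 had no overlap between the groups. These features share one transcript and the same arrays, so they are not independent. ICAM1 averaged 11.27 in V79_8x and 10.54 in Mock cells. Its adjusted p was 0.038, past the threshold, with the experiment letter as a random block. It also passed in 2 of the 24 fits that left out 1 array, reaching 0.011 without V21 D and 0.014 without V79_8x B, and was at most 0.27 in the others. Without the 4 arrays that stood apart the difference was 0.36, with an adjusted p of 0.998.

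Beyond these, the 12 genes with the lowest p in each direction were named by rule, and all but SERPINA3 missed the threshold; from the third rank on the adjusted p was 0.832. Without the 4 arrays that stood apart all 24 kept their direction, and 8 of them moved by over 1.5 times. The 12 higher in V79 included 3 members of the interferon response list, IFITM1, IFI27 and IFITM3. IFITM1, a membrane protein that restricts virus entry, measured 9.87, 8.86, 9.87, 9.98, 10.12 and 9.58 on V79 arrays, against 8.06, 9.18, 9.50, 8.06, 9.07 and 7.74 on V21 arrays. V79 C lay below V21 C and D and F, so the groups overlapped, and the V21 arrays spread widely (SD 0.73). Its difference of 1.11 (SE 0.26) was the only one above 1 among genes higher in V79, and its second feature was 0.96 higher. IFI27, an interferon-induced mitochondrial protein, was 0.82 higher in V79 (SE 0.21), and IFITM3, which restricts virus entry from endosomes, 0.34 higher (SE 0.10). IFITM4P, a pseudogene close in sequence to the IFITM genes, was 0.36 higher, and its signal cannot be assigned to it with certainty. C1S, a protease of the classical complement pathway, was 0.49 higher, with V21 B and C lowest at 7.39 and 6.98. With the 4 arrays left out, C1S was 0.28 higher.

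The other genes higher in V79 differed by less. TNFAIP2, a gene induced by tumour necrosis factor, was 0.23 higher (SE 0.07). VPS37D, a subunit of the ESCRT-I sorting complex, measured 11.94 to 12.02 on V79 arrays, against 11.37 to 11.92 on V21 arrays, a difference of 0.24 that was 0.12 without the 4 arrays. MMP25, a membrane-anchored matrix metalloproteinase, differed by 0.26 on its brightest feature and by -0.08 on a dimmer one. KCTD21 and HDHD3 were 0.27 and 0.37 higher.

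Regulatory sequence around the transcription start is shown for the genes of this group whose promoters hold an interferon-type motif. Promoters of 300 bases, 250 before the start and 50 after, were taken from RefSeq (GRCh38.p14). For each gene only the first promoter listed was used. Of the 12 higher genes 9 matched one, and of the 12 lower genes 7 did. The letters searched, on both strands, were GAAA, any 2 bases and GAAA again for the interferon-stimulated response element, bound by ISGF3 and IRF proteins, and TTCNNNGAA for the gamma-activated site, bound by STAT dimers. Capitals mark the match in each window, read along the gene's own strand.
ICAM1: cgcgaggtTTCCGGGAAagcagcac
IFITM1: acttctgaGAAACTGAAAcgacaggg
IFI27: gtttcctgGAAAATGAAAcctatctc
IFITM3: actgttgaGAAACCGAAActactggg
The ICAM1 window is a gamma-activated site at chr19:10271037-10271061 on the plus strand, its match beginning 75 bases before the start. The others are response elements, for IFITM1 at chr11:314026-314051 on the plus strand, 6 bases before the start, for IFI27 at chr14:94110633-94110658 on the plus strand, 95 bases before it, and for IFITM3 at chr11:320878-320903 on the minus strand, 35 bases before it.

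The response element occurred in 3 of the 9 higher genes' promoters (IFITM1, IFI27 and IFITM3) and in 1 of the 7 lower genes' promoters (CCDC102B), against 3.65% of all 27305 promoters. The gamma-activated site occurred in 3 of 9 (ICAM1, IFITM1 and IFI27) and 0 of 7, against 7.88%. In IFITM1 and IFI27 both motifs overlap. The NF-kB consensus was searched as GGG, a purine, any 2 bases, 2 pyrimidines and CC, and sites that depart from it would be missed. It occurred in 2 of 9 (VPS37D and IFITM3) and 0 of 7, against 10.8%. The SERPINA3 promoter held none of these 3 motifs in this window. The starts used for IFI27 and VPS37D lie inside their RefSeq gene spans, which begin at chr14:94105894 and chr7:73665347. Other starts of a gene were not searched. The genes were chosen by p in these data. The 3 higher genes with a response element are the 3 members of the interferon response list, so these shares are no test. A match describes the letters and is no measurement of binding.

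The 12 genes lower in V79 belonged to other classes. SERPINE2, protease nexin-1, which inhibits thrombin and plasminogen activators, measured 9.59, 10.06, 10.08, 9.90, 9.88 and 9.97 on V79 arrays, against 10.21, 10.34, 10.14, 10.04, 10.03 and 10.32 on V21 arrays. V79 C and D overlapped with V21 E and F, and the difference was -0.27 (SE 0.08). DBR1, the enzyme that opens intron lariats, differed by -0.29, and XPOT, the tRNA exporter of the nucleus, by -0.22. MRPL1, a protein of the mitochondrial ribosome, differed by -0.30. GEM, a small GTPase that inhibits voltage-gated calcium channels, differed by -0.19, and HPCAL4, a neuronal calcium sensor, by -0.17. SERPINE2 differed by -0.15, XPOT by -0.06 and GEM by -0.12 without the 4 arrays.

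Small nucleolar RNAs of the box C/D kind, which guide methylation of ribosomal RNA, made up 3 of the 12. SNORD29 measured 7.89, 8.35, 8.15, 8.21, 8.04 and 7.96 on V79 arrays, against 8.43, 9.29, 8.60, 8.09, 8.23 and 8.66 on V21 arrays. V21 C was the highest array by a wide margin and the groups overlapped. SNORD59A and SNORD75 differed by -0.30 and -0.24, with V21 C highest for both. SNORD29 differed by -0.25 and SNORD75 by -0.12 without the 4 arrays. FNDC3A differed by -0.24 on its brightest feature, with V21 C alone at 13.92 and the other V21 arrays at 13.47 to 13.51, and by 0.07 on a dimmer feature. CCDC102B differed by -0.25, by -0.16 without the 4 arrays, and by -0.05 on a dimmer feature. The histone variant gene H2AB2 differed by -0.36 with V21 F at 7.79, by -0.21 without V21 F, and by -0.01 on a dimmer feature.

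**Figure D2:**
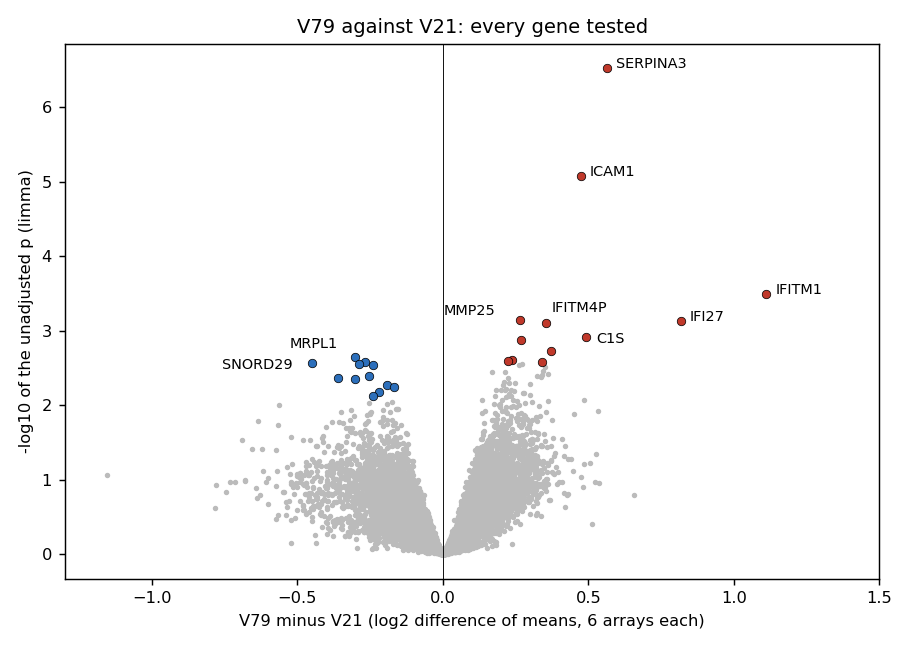
Each of the 15046 genes by its V79 minus V21 difference in log2 intensity (x axis) and the negative log10 of its unadjusted limma p (y axis), with the 12 genes of lowest p in red for higher and blue for lower. SERPINA3 and ICAM1 lie above all other genes, and the widest differences to the left have low values on the y axis.

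Complete separation of the groups was rare. All 6 V79 arrays lay above all 6 V21 arrays for 7 genes, 0.0465% of those tested, and below them for 2 genes, 0.0133%. The 7 were SERPINA3, ICAM1, VPS37D and IFITM4P with DNAAF3, KCNN3 and MCM3AP-AS1, the last 3 being named after their values were seen. The 2 were H2AB2 and HPCAL4. Apart from SERPINA3 and ICAM1, the gap between the groups was 0.01 to 0.03, close to the rounding of the deposited values.

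The same genes can be read in V79_8x against Mock cells, a comparison that shares no array with V79 against V21. Both were taken from the same fit, so each gene has the same SE in both, 0.080 for SERPINA3. The genes were chosen by low p, which favours a small SE. The counts passing the threshold in V79_8x against Mock, higher or lower, are therefore no independent check. All 12 genes higher in V79 than V21 were higher in V79_8x than Mock, against 54.7% of all genes tested. Of these, 8 passed the threshold there, where calls upward made up 1.71% of genes: SERPINA3, ICAM1, IFITM1, IFI27, IFITM4P, C1S, TNFAIP2 and IFITM3. IFITM1 averaged 14.43 in V79_8x and 9.07 in Mock cells, and IFI27 differed by 4.83 there, against 0.82 between V79 and V21. MMP25, KCTD21, HDHD3 and VPS37D differed by 0.03 to 0.19 in V79_8x and did not pass.

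All 12 genes lower in V79 than V21 were lower in V79_8x than Mock, against 44.9% of all genes. SERPINE2, DBR1 and GEM passed there, with differences of -0.36, -0.36 and -0.44, where calls downward made up 0.485% of genes. The other 9 differed by -0.02 to -0.22. Mock D, which stood apart as V21 B and V21 C did, is among these Mock arrays. The counts in either direction were not repeated without it. Mock cells generally lay between V79 and V21: the V79 mean exceeded the Mock mean for 12 of the 12 higher genes, and the V21 mean was below it for 11. For the lower genes the V79 mean was below Mock for 12 of 12 and the V21 mean above Mock for 11. Because the genes were chosen for a difference between V79 and V21, a Mock value between them is partly set by that choice.

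**Figure D3:**
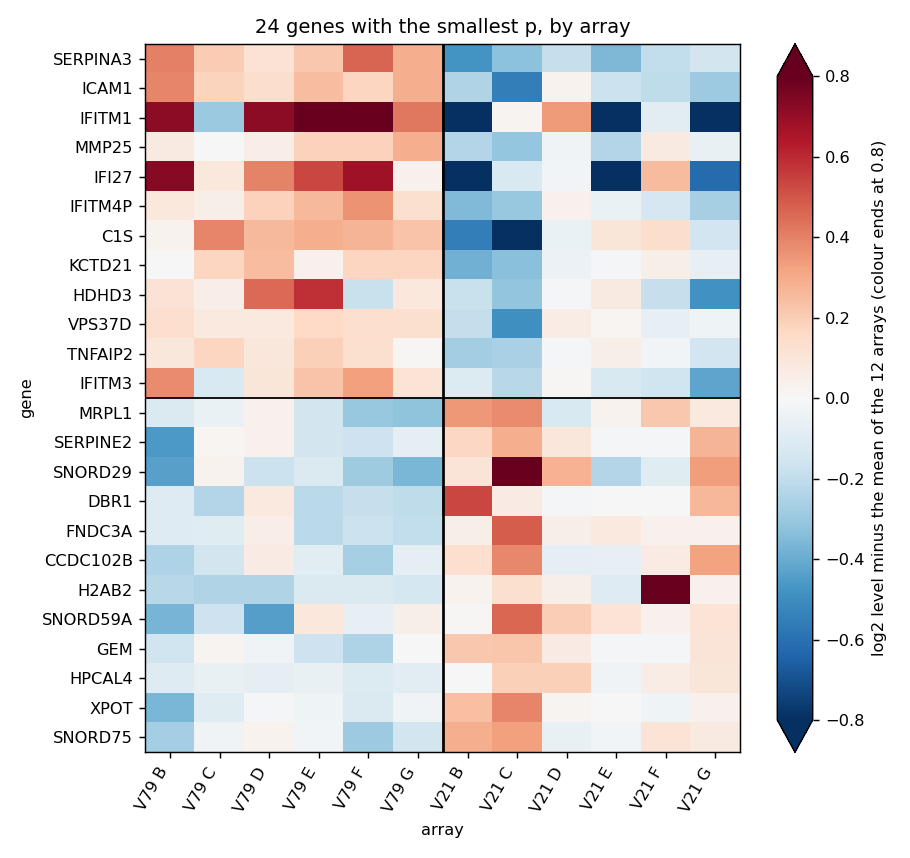
Log2 intensity of the 24 named genes on each V79 array (left of the line) and V21 array (right), coloured by the deviation from the gene's mean over these 12 arrays, with colours ending at 0.8. IFITM1 and IFI27 vary most between arrays of 1 group, and V21 C is the darkest column for SNORD29 and FNDC3A.

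FMR1 itself was checked because its repeat-bearing region is in the plasmid; where its features lie in the gene was not looked up here, so they cannot tell plasmid from endogenous RNA. FMR1 measured 10.40, 9.92, 9.94, 9.40, 9.80 and 9.42 on V79 arrays, against 10.28, 9.82, 9.94, 9.74, 9.99 and 9.81 on V21 arrays. The groups overlapped throughout, and the difference was -0.12 (SE 0.15, 95% interval -0.42 to 0.19, limma). An exact two-sided permutation test over the 924 ways to split the 12 arrays gave p = 0.55. Leaving out 1 array at a time moved the difference between -0.23 (without V79 B) and -0.03 (without V79 E). A dimmer FMR1 feature was 0.19 higher in V79.

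Over all genes tested, 58.8% were higher in V79, the share beside which each list's split is to be read. The FMRP family and its partners did not change past the threshold. Of 9 genes tested 6 were higher and 3 lower in V79, with a median of 0.02, the same as the median of all genes tested (0.02), and all 9 intervals lay within 0.5 of zero. FXR1, a paralogue of FMRP, differed by 0.13 on its brightest feature and by -0.12 on another, and TOP3B, a topoisomerase that acts on RNA with FMRP partners, was 0.14 higher. FXR1 was 0.04 and TOP3B 0.08 higher, and the list median was -0.01 without the 4 arrays. Among 25 proteins described with CGG repeat RNA, 9 were higher and 16 lower, with a median of -0.08 that was -0.02 without the 4 arrays apart. MATR3, a nuclear matrix RNA-binding protein, differed by -0.16, and KHDRBS3, a relative of the splicing regulator SAM68, by -0.18, or by 0.32 on a dimmer feature. With the 4 arrays left out, MATR3 differed by -0.09 and KHDRBS3 by -0.07, and without V21 C alone KHDRBS3 differed by -0.09. The 25 intervals all lay within 0.5 of zero.

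Factors of repeat translation gave 11 of 19 higher and a median of 0.03. DDX3X, an RNA helicase that assists translation of repeat RNA in fly and human cell models, differed by -0.36 with a wide SE of 0.19, and EIF2A, an alternative initiator factor, by -0.17. The microRNA processing genes split 6 higher and 7 lower with a median of 0.00. XPO5, which exports precursor microRNAs, was 0.27 higher with V79 B at 9.67, the lowest of the V79 arrays, and DGCR8, the partner of Drosha, differed by -0.15. Proteins found in premutation inclusions, among them the lamin gene LMNA at -0.14 and the small heat shock protein gene CRYAB at -0.13, split 9 higher and 8 lower. Leaving out V21 C alone took DDX3X to -0.14, XPO5 to 0.15 and DGCR8 to -0.04. DDX3X differed by -0.01, XPO5 by 0.14, DGCR8 by -0.01, LMNA by -0.09 and CRYAB by -0.08, and the 3 list medians lay between -0.03 and 0.00 without the 4 arrays. None of the genes in these lists passed the threshold in either direction.

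Among 33 genes of the acute phase and of IL-6 and STAT3 signalling, SERPINA3 alone passed the threshold; it was the only one of the 685 tested genes on any of the 30 lists to do so, and none fell. The list had 20 genes higher and 13 lower, with a median of 0.04. SOCS3, a feedback inhibitor of STAT3 signalling, averaged 10.94 ± 0.071 in V79 and 10.71 ± 0.13 in V21 cells (SD, n = 6 each), with overlap, a difference of 0.23 with an unadjusted p of 0.0050 and an adjusted p of 0.832 in limma. PIAS3, an inhibitor of STAT3, was 0.22 higher, and CP, the copper carrier ceruloplasmin of the acute phase, differed by -0.21. PIAS3 and CP were named after their values were seen. SERPINA3 has close relatives in the serpin A cluster, of which 3 genes including SERPINA3 were tested. SERPINA1, alpha-1-antitrypsin, differed by -0.05, with V79 B highest among the V79 arrays at 7.49. It ranged from -0.14 without V79 B to 0.07 without V21 C. Genes for target proteases of these inhibitors split 2 and 2, with CMA1, mast cell chymase, at -0.14 and KLK3, a kallikrein, at 0.13, both at levels close to the filter. Without V21 C the CMA1 difference was -0.08, and leaving out 1 array moved KLK3 between 0.01 (without V79 F) and 0.23 (without V21 B).

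The interferon, NF-kB and p53 lists had most of their members higher in V79, as did 58.8% of all genes tested. The integrated stress and metal response lists did so too, with 25 of 33 and 11 of 14 genes. Of 46 interferon response genes 35 were higher and 11 lower, with a median of 0.13 against 0.02 for all genes. Dim genes were left out by their mean over all 24 arrays, and 4 of the 46 lay below that limit in both V79 and V21 cells, 2 of them higher and 2 lower. Of the other 42, 33 were higher and 9 lower, with a median of 0.19. No member passed the threshold. At an unadjusted p under 0.05 there were 13 higher and 0 lower, by 0.18 to 1.11, where 2.55% of all genes were that significant and higher and 1.27% lower. Those named after their values were seen include TAP1, a peptide transporter of antigen presentation, 0.36 higher, BST2, which tethers virus particles at the cell surface, 0.32 higher, ISG15, a ubiquitin-like modifier, 0.33 higher, and IFIT1, a sensor of viral RNA caps, 0.53 higher. The mean level of the list was 8.90, 8.76, 8.88, 9.01, 8.99 and 8.98 on V79 arrays, against 8.71, 8.71, 8.84, 8.73, 8.81 and 8.65 on V21 arrays. V79 C lay below V21 D and F, and the groups overlapped. The list's mean was 11.09 in V79_8x and 8.89 in Mock cells, so V79 exceeded Mock by little while V21 lay below it. The list median was 0.11 without the 4 arrays that stood apart.

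Of 28 genes of NF-kB signalling and its targets 23 were higher and 4 lower, with a median of 0.08 (0.06 without the 4 arrays). ICAM1 and TNFAIP2 belong to it. The mean level of the list was 9.68 in V79 and 9.57 in V21 cells. Of 28 p53 targets 24 were higher and 4 lower, with a median of 0.13 (0.12 without the 4 arrays). TNFRSF10B, a death receptor, measured 13.13 to 13.47 on V79 arrays, against 12.66 to 13.18 on V21 arrays, a difference of 0.27, with an unadjusted p of 0.0028 and an adjusted p of 0.832 in limma. The TNFRSF10B difference was 0.14 without the 4 arrays. BTG2, an antiproliferative gene, was 0.19 higher. The list's mean was 10.42 in V79 and 10.30 in V21 cells. Each of these lists was described with earlier results of these data known, and members of a list share regulators, so their counts are no test.

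**Figure D4:**
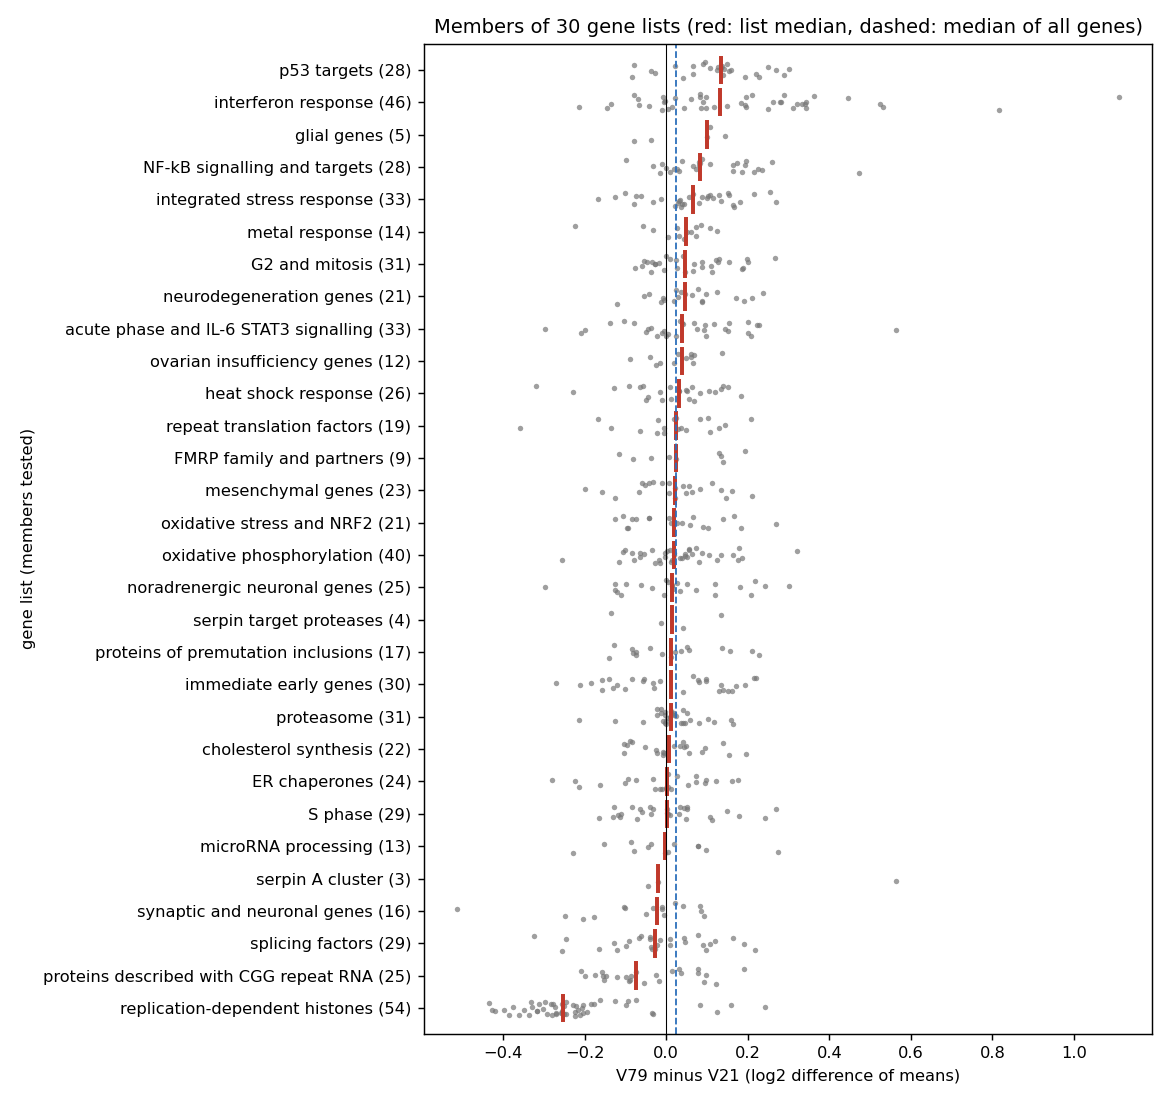
V79 minus V21 differences in log2 intensity for the tested members of each gene list, one point per gene with a red mark for the list median and a dashed line at the median of all genes tested. The interferon and p53 lists have medians of 0.13 and the histone list a median of -0.25, against 0.02 for all genes.

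Stress lists showed no call. The integrated stress response had 25 of 33 genes higher, with a median of 0.07; VLDLR, a lipoprotein receptor, was 0.22 higher and SLC6A9, a glycine transporter, 0.17 higher. The median was 0.04 and VLDLR was 0.11 higher without the 4 arrays. Endoplasmic reticulum chaperones split 12 and 12, with EDEM1, which routes misfolded glycoproteins to degradation, at -0.28 and DNAJC3, a co-chaperone, at -0.23. Leaving out V21 C alone took EDEM1 to -0.14 and DNAJC3 to -0.10, and without the 4 arrays they were at -0.05 and -0.08. The heat shock response split 16 and 10, with DNAJB4, a co-chaperone of HSP70, at -0.32, where V79 D was highest among the V79 arrays at 8.49, and CHORDC1, a partner of HSP90, at -0.23. With the 4 arrays left out, 10 of the 26 were higher, DNAJB4 was at -0.16 and CHORDC1 at -0.13. Immediate early genes split 15 and 15, with EGR3, an activity-induced transcription factor, at -0.16 and at -0.095 without V79 B. Genes of oxidative stress split 13 and 8, with TKT, transketolase, at 0.17 and NQO1, a quinone reductase, at -0.11 and at -0.06 without V79 B. Metal response genes split 11 and 3, with the metallothionein genes MT2A at 0.09 and MT1H at 0.13, the second at 0.22 without the 4 arrays; these 2 differed by 1.07 and 0.98 between V79_8x and Mock.

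Replication-dependent histones were lower in V79 for 50 of 54 genes, with a median of -0.25 and no call. The list's mean was 12.96 in V79 and 13.19 in V21 cells. V21 B and V21 C were highest at 13.54 and 13.77, and V79 B was highest of its group at 13.28; these are arrays that stood apart. The median was -0.04 without the 4 arrays. H2AC12 and H2AC15, both H2A genes, differed by -0.27 and -0.26, and by -0.17 and -0.16 without the 4 arrays. Genes of G2 and mitosis split 20 and 11, with the mitotic kinase genes PLK1 at 0.27 (-0.08 on a dimmer feature) and AURKA at 0.19, and those of S phase 16 and 13, with CDT1, a replication licensing factor, at -0.13 and RRM1, a subunit of ribonucleotide reductase, at -0.11. Leaving out V21 C alone took AURKA to 0.10, CDT1 to -0.08 and RRM1 to -0.06. PLK1 was at 0.16, AURKA at 0.11, CDT1 at -0.06 and RRM1 at -0.06, and 10 of the 29 S phase genes were higher without the 4 arrays.

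**Figure D5:**
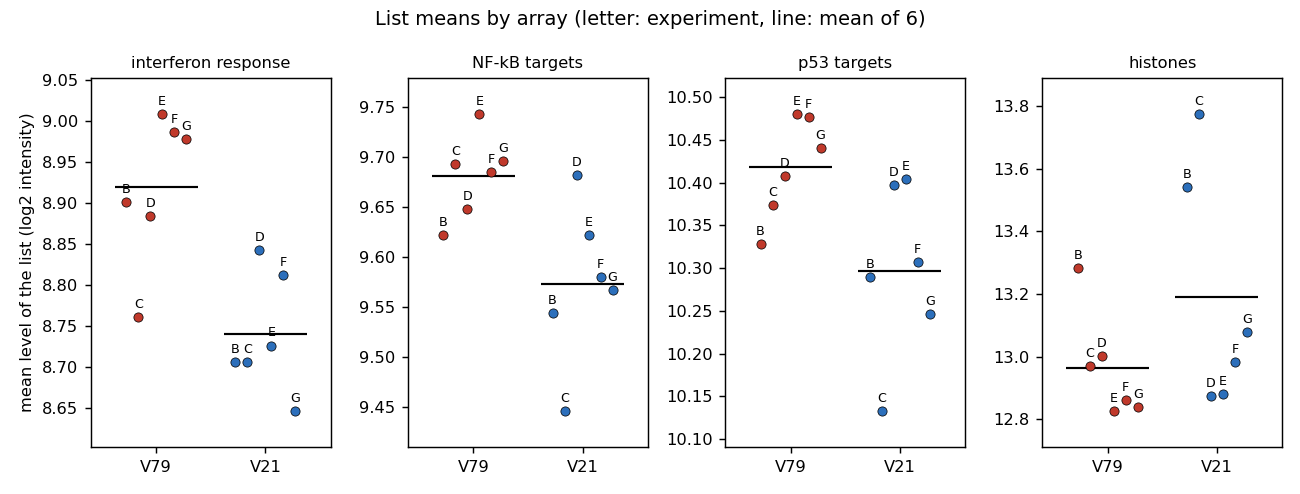
Mean log2 intensity over the tested members of the interferon, NF-kB, p53 and histone lists on each array (y axis), with V79 left of V21, the experiment letter at each point and a line at the group mean. For histones, V21 B and C stand above the rest, and for the other 3 lists V79 and V21 arrays overlap.

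Genes tied to premutation disorders did not change past the threshold. Neurodegeneration genes split 15 and 6 with a median of 0.05, with MAPT, which encodes tau, 0.24 higher with V21 C lowest at 8.46 and 0.10 higher without that array, and TARDBP, which encodes TDP-43, at -0.12 on its brightest feature and 0.16 and 0.005 on others. Ovarian insufficiency genes split 8 and 4 with a median of 0.04, and all 12 intervals lay within 0.5 of zero; INHBA, an activin subunit, was 0.14 higher and MCM8, a helicase of recombination repair, 0.07 higher. Leaving out V21 C alone took INHBA to 0.08 and MCM8 to 0.04. Synaptic genes split 5 and 11, with the scaffold genes SHANK2 at -0.25 and HOMER1 at -0.18. Leaving out V21 C alone took SHANK2 to -0.09 and HOMER1 to -0.06. MAPT was at 0.07, INHBA at 0.03, MCM8 at 0.01, SHANK2 at -0.045 and HOMER1 at -0.07 without the 4 arrays.

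Cell identity and housekeeping lists likewise held no call. Noradrenergic neuronal genes split 16 and 9, with NPY, a neuropeptide, at 0.22 and STMN2, a regulator of axonal microtubules, at 0.18. Mesenchymal genes split 14 and 9, with COL1A2, a collagen chain, at -0.16 and WWTR1, the coactivator TAZ, at 0.15. The 5 glial genes tested split 3 and 2, with ERBB3, a neuregulin receptor, at 0.14 and CNP, a myelin enzyme, at 0.11. Oxidative phosphorylation split 25 and 15, with SDHD, a subunit of complex II, at -0.26 (0.045 and 0.225 on dimmer features) and ATP5F1A, a subunit of ATP synthase, at 0.32, where V21 C was lowest at 13.38. Cholesterol synthesis split 11 and 11, with MVK, mevalonate kinase, at 0.16 and LSS, lanosterol synthase, at 0.14. Splicing factors split 12 and 17, with SRSF3 at -0.26 and HNRNPU at -0.25. The proteasome split 19 and 11, with the ATPase genes PSMC5 at -0.21 and PSMC4 at 0.16. Many of these values rested on V21 C: leaving it out alone took NPY to 0.14, STMN2 to 0.09, COL1A2 to -0.08, SDHD to -0.13, ATP5F1A to 0.08, LSS to 0.04, HNRNPU to -0.15, PSMC5 to -0.13 and PSMC4 to 0.07. PSMC5 was at -0.09 without V79 B, SRSF3 at -0.16 without V21 B and WWTR1 at 0.04 without V79 C. With the 4 arrays left out, SDHD was at -0.04, ATP5F1A at 0.08, SRSF3 at -0.11, HNRNPU at -0.08, PSMC5 at -0.03 and CNP at 0.06, and 13 of the 31 proteasome genes were higher.

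The size of difference that these arrays could show bears on all the values above. The median SE over genes was 0.098, and the 95% interval of the difference lay within 0.5 of zero for 85.9% of genes and within 1 for 98.4%. The middle of the distribution was narrow, with the 5th and 95th percentiles of the differences at -0.22 and 0.21. Differences above 0.5 numbered 10 upward and 48 downward. The widest downward one, FBRSL1 at -1.15, had an SE of 0.64 and was named after its values were seen. More genes were higher than lower in V79, 8843 against 6167, though the arrays' distributions had been made equal before deposit.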

How the data were processed

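RNA from SH-SY5Y cells was measured on 24 1-colour Agilent arrays, 6 in each of 4 groups, from 100 ng of RNA labelled with Cy3, per the labels' protocols. The deposited values are log2 intensities for 62976 features; the labels used here do not state how the authors corrected background or normalised. Sorted values differed between arrays by at most 0.01, so the distributions had been made equal. Precision is limited by the number of arrays. RefSeq and platform annotation named 37051 features, for 20061 genes; 25925 were unnamed.

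Each gene's brightest feature over the 24 arrays was used, and the dimmest 25% of genes were left out. One linear model over 4 groups was fitted with limma 3.58.1 in R 4.3.3, with eBayes, no covariates and Benjamini-Hochberg adjustment over all genes. Named were the 12 genes of lowest p in each direction, FMR1, and the 2 genes of lowest p in each list, from 30 lists. The members and lists were chosen with earlier results of these data known. The fitting was tested on simulated data. Alternatives were blocks, array weights, filters, feature rules, centring, and leaving out arrays.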

Additional observations from a re-analysis of the deposited data

Results flagged for a closer look

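In groups of 6 arrays, 1 array lay far from the other 5 in 30 of 216 groups looked at, judged by its gap to the nearest array over the group's range against a critical ratio of 0.625. Chance flags about 1 in 20. V79 B carried 15 of the 30 and V21 C carried 9, both arrays that stood apart, with 3 on V79 D and 1 each on V79 F, V79 G and V21 F.

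V79 B was lowest for XPOT (ratio 0.694), XPO5 (0.714), EGR3 (0.667), NQO1 (0.706) and PSMC5 (0.694), and highest for SERPINA1 (0.727). V79 B was also lowest in the mean level of the repeat translation factors (0.751), proteins of premutation inclusions (0.729), heat shock response (0.676), oxidative stress genes (0.798), S phase (0.706), oxidative phosphorylation (0.642), cholesterol synthesis (0.698) and proteasome (0.832). It was highest in the mean of the serpin A cluster (0.682). V79 D was lowest for SOCS3 (0.65) and highest for DNAJB4 (0.732) and SRSF3 (0.698). V79 F was lowest for TKT (0.625), and V79 G highest for CRYAB (0.64).

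V21 C was highest for FNDC3A (0.911), KHDRBS3 (0.644), SHANK2 (0.822) and the mean of metal response genes (0.653). It was lowest for MAPT (0.66), STMN2 (0.692), ATP5F1A (0.645), LSS (0.8) and the mean of splicing factors (0.698). V21 F was highest for H2AB2 (0.781). Neither SERPINA3 nor ICAM1 had such an array in V79 or V21 cells.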

How the results depend on the processing

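The count of genes past the threshold was 1 in the fit reported and 1 with the replicate block (experiment letter). It was 2 with the letter as a random block (SERPINA3, and ICAM1 at an adjusted p of 0.038) and 2 where every named feature, or all features named or not, was tested, both being SERPINA3 features. It was 0 with the 12 arrays alone, 0 with these and the replicate block, 0 without the 4 arrays that stood apart, and 0 with the dimmest 50% left out, which removed SERPINA3 itself. Unadjusted p under 0.05 were met by 207, 498, 334 and 386 genes in these 4 fits. Using the 12 arrays without V21 B, V21 C and V79 B gave 0 calls, with 302 genes at that unadjusted p; that setting and the test of all features were chosen after seeing the data. Leaving out each of the 24 arrays in turn gave 1 to 2 calls. The titles give the letters as experiments. The correlation of same-letter deviations between V79 and V21 was 0.77 for B, 0.65 for E and 0.24 for F, but 0.03 for D, -0.09 for G and -0.11 for C, so the data did not settle whether every letter pairs its arrays. The replicate block over 24 arrays changed no call. SERPINA3 passed the threshold in 33 of 38 alternatives. In 24 of 24 fits that left out 1 array it passed, with differences of 0.52 to 0.60 and a highest adjusted p of 0.024 in limma. Leaving out a Mock or V79_8x array could not change the difference, only its SE. Centring changed nothing, as all array medians were equal. The count of alternatives passed is thus partly set in advance. SERPINA3 did not pass with the 12 arrays alone (0.15), with these and the replicate block (0.79), or without the 4 arrays (0.28). Nor did it pass with the 12 less the 3 arrays (0.997) or on 1 of its dimmer features (0.84). The cause was not tested. Of 2921 values for 78 named genes under alternatives 2896 kept their direction and side of the threshold, and 17 turned sign. All of the 78 but SERPINA3 missed the threshold in the fit reported. Keeping their side of it was thus largely set in advance and is no measure of stability. Without the 4 arrays that stood apart 49 of the 78 moved by over 1.5 times or turned sign. Of the 17 values that turned sign under alternatives, those on a dimmer feature were MMP25 (-0.08), FNDC3A (0.0667), FMR1 (0.19), FXR1 (-0.12), KHDRBS3 (0.32), PLK1 (-0.0783), TARDBP (0.16 and 0.005) and SDHD (0.045 and 0.225). As the mean of features FMR1 gave 0.04, KHDRBS3 0.0733 and SDHD 0.005. SERPINA1 gave 0.047 without the 4 arrays, 0.047 with the 12 less the 3 arrays and 0.0588 with array weights; it ranged from -0.14 without V79 B to 0.0687 without V21 C. SERPINA3 was in the dimmest 50% of genes, and what low signal did to its difference was not tested.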

Other observations

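Small nucleolar RNAs formed a class chosen after its values were seen. Of 252 tested, 223 were lower and 29 higher in V79 than V21, with a median of -0.18 and no call. Without the 4 arrays that stood apart the median was 0.01 and 109 were lower. Replication-dependent histones moved the same way between these settings, with medians of -0.25 and -0.04.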
